A study of Homo sapiens with 4 samples.

Results

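The E2F transcription factors and the pocket proteins that bind them were examined in RNA-seq libraries of MCF10A cells with and without extra HSF1. The 10 genes were taken by symbol from a list of the family, which was drawn up with earlier results of these data known: E2F1, E2F2, E2F3, E2F4, E2F5, E2F7, E2F8, RB1, RBL1 and RBL2, of 63856 genes in the count table. MCF10A is a non-tumorigenic human breast epithelial cell line. Both variants were grown in the same DMEM/F12 medium with horse serum, insulin, hydrocortisone, EGF and cholera toxin. The wild type variant (WT) was unmodified. The HSF1 variant had been transduced with a lentivirus carrying HSF1, the heat shock transcription factor, in the pLVX vector and selected with puromycin. Cells with the empty vector were not analysed here, so the extra HSF1 cannot be told apart from transduction, selection and the derivation of the line. Each variant had 2 libraries, which the study calls biological replicates without saying that they came from separate cultures, and p-values therefore measure the spread between these libraries.

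E2F factors bind DNA, most of them as dimers with a DP partner, at the promoters of genes for DNA replication and cell division. Pocket proteins (RB1, and its relatives p107 from RBL1 and p130 from RBL2) bind E2F factors and hold these genes down, until cyclin-dependent kinases phosphorylate them and release the E2F. E2F1, E2F2 and E2F3 are usually classed as activators, E2F4 and E2F5 as repressors that need a pocket protein, and E2F7 and E2F8 as atypical repressors that bind DNA without a DP partner. Several of the genes, E2F1 and RBL1 among them, are themselves E2F targets and are transcribed most as cells enter S phase.

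The libraries held between 18688109 and 24184285 counts, and 15830 genes passed the filter on low counts and were tested. Values are given as counts, or as CPM, which are counts scaled to a common library size with the TMM factors of edgeR. HSF1 itself was at 194.8 ± 7.94 CPM in WT cells and 990.5 ± 11.5 in HSF1 cells (SD over 2 libraries each), which is 2.35 ± 0.10 on the log2 scale (fold change and standard error). Every gene below was tested with the quasi-likelihood method of edgeR, with p-values adjusted after Benjamini and Hochberg and a threshold of 0.05, and the adjusted p of HSF1 was 1.14e-10. The defining markers of breast epithelium were all present: 12 of 12 listed genes had counts, summed to 25506 and 24628 CPM in WT libraries and to 12877 and 13615 in HSF1 libraries, with 8 of them lower and 3 higher in HSF1 cells. Of the blood cell markers PTPRC, the common leukocyte antigen gene, had no count in any library, while the list summed to 1.39 and 1.24 CPM in WT libraries and to 58.8 and 83.5 in HSF1 libraries, nearly all of it CD14. The fibroblast markers summed to between 17.3 and 27.0 CPM, within which DCN went from 1 and 3 counts to 94 and 87 (log2 fold change 5.16) and COL6A3 fell by 0.79 on the log2 scale, and the endothelial markers to 3.14, 2.10, 13.6 and 14.7. What part these marker genes had in the differences below was not tested.

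Across the family, 9 of the 10 genes passed the filter. In HSF1 cells 6 were higher than in WT cells (E2F1, E2F4, E2F7, E2F8, RBL1 and RBL2), 1 was lower (E2F3), and E2F5 and RB1 did not pass the threshold. The variants differed widely, since 32.7% of all tested genes were called higher and 33.2% lower by the same rule, 65.9% in all. The libraries of the variants did not overlap for the same 7 genes, 6 with both HSF1 libraries above both WT libraries and 1 below, beside 42.1% and 41% of all tested genes. With a change of at least 2-fold required as well, E2F1, E2F8 and RBL1 were higher and no gene of the family was lower, against 14.9% and 14% of all tested genes. Their log2 fold changes had a median of 0.94, beside 0.019 over all tested genes.

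**Figure D1:**
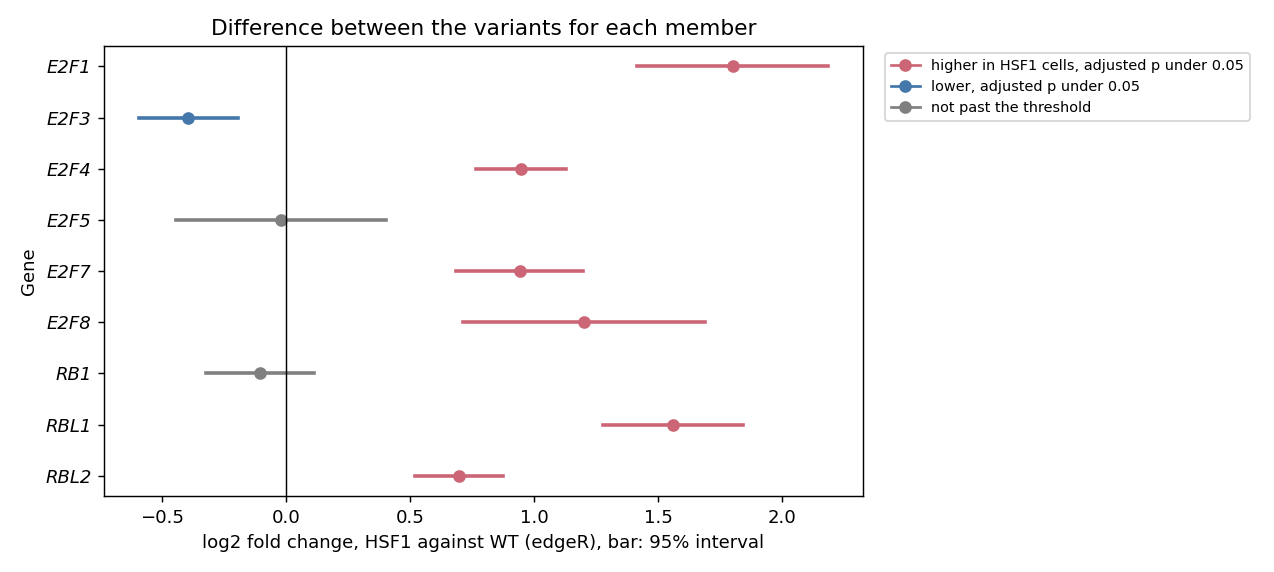
Log2 fold change of each tested gene of the family between HSF1 and WT cells (x axis) with its 95% interval (bars), from edgeR with 2 libraries per variant. The intervals of 6 genes lie above 0, that of E2F3 lies below 0, and those of E2F5 and RB1 span 0.

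The promoters of 4 members are shown because they span the directions seen and differ in whether they hold an E2F site: E2F1 and RBL1 had the largest rises with all libraries, E2F3 was the gene that fell, and E2F4 is the most abundant E2F per kilobase. Each is the 250 bases before the RefSeq start on GRCh38.p14, written 5′ to 3′ in the direction of the gene, and capitals mark a match to an E2F site. The site was searched as TTTCGCGC, TTTGGCGC or TTTCCCGC on both strands of the window from 250 bases before to 50 bases after the start. The E2F1 window is chr20:33686386-33686635 (minus strand), that of RBL1 is chr20:37095998-37096247 (minus strand), that of E2F3 is chr6:20401629-20401878 (plus strand) and that of E2F4 is chr16:67191905-67192154 (plus strand).
E2F1: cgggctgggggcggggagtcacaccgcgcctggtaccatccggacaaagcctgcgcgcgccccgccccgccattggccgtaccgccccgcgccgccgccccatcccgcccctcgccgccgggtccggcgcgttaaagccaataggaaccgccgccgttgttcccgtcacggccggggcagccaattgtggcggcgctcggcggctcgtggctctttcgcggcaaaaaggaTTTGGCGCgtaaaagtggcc
RBL1: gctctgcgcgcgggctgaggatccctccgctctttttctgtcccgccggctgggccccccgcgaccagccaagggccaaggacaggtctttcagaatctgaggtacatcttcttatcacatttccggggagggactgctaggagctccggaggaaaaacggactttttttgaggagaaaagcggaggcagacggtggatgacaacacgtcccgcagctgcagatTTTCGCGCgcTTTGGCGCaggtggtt
E2F3: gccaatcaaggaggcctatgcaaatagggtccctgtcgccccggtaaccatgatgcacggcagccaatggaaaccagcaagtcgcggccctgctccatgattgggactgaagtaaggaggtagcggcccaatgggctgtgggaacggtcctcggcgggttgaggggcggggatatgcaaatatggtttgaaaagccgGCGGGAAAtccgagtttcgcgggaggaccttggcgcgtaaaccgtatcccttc
E2F4: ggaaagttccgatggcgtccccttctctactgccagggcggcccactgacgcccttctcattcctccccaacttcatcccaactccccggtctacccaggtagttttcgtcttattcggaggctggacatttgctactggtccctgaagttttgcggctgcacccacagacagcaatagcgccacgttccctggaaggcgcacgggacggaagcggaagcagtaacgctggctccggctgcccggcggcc

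The E2F site was found in 2.74% of the 35116 promoters of the RefSeq table and in 4 of the 7 members with a usable promoter. E2F1 held 1 match, 20 to 13 bases before its start (positions -20 to -13). RBL1 held 2, at -26 to -19 and at -16 to -9. E2F3 held 1 on the reverse strand, at -53 to -46, together with the CHR element TTTGAA at -65 to -60, a sequence bound by the MuvB complex and found in 15.2% of promoters. RBL2, which rose, also held a CHR element, at 24 to 29 bases after its start. E2F2 held 1, at -42 to -35. The promoters of E2F4, E2F7 and RBL2 held no match to these letters. A match stood before genes that rose and before the gene that fell, and genes without one rose as well. What part the matches had in these changes was not tested. A pair of heat shock units, GAANNTTC or TTCNNGAA, the kind of sequence that HSF1 binds, lay at -249 to -242 in E2F4 and at -215 to -208 in RBL2, and in 13.5% of all promoters. The RefSeq entry given for RB1 begins 172699 bases from the first counted base of the gene and was not used.

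E2F1 (ENSG00000101412.12, chromosome 20, 33675683 to 33686404, minus strand, hg38), the activator that drives entry into S phase, showed the largest difference of the family with all 4 libraries. It had 123 and 73 counts in WT libraries (6.55 and 3.93 CPM) and 481 and 344 in HSF1 libraries (19.2 and 17.3 CPM). Both HSF1 libraries lay above both WT libraries, and the WT libraries were the less alike of the pairs. The log2 fold change was 1.80 ± 0.18, or 3.48-fold, with an adjusted p of 6.63e-07. Without WT replicate 2 it was 1.46, below the 1.52 of RBL1 in the same fit, and without WT replicate 1 it was 2.23. Of the 15830 tested genes 811 had a larger log2 fold change. In RNA from a whole culture, a larger share of cells in S phase and more E2F1 RNA per cell cannot be told apart.

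E2F3 (ENSG00000112242.14, chromosome 6, 20401906 to 20493715, plus strand) is the other activator with counts. It had 613 and 575 counts in WT libraries (32.7 and 30.9 CPM) and 601 and 486 in HSF1 libraries (23.9 and 24.5 CPM). The HSF1 libraries were below the WT libraries without overlap, and the replicates of each variant lay close together. E2F3 fell by 0.39 on the log2 scale (standard error 0.094, 95% interval -0.60 to -0.19), with an adjusted p of 0.00194. It is the smallest of the called changes in the family, and its adjusted p reached 0.0441 when HSF1 replicate 2 was left out. The counts are per gene, so the long and short E2F3 transcripts, which start at different promoters, were not separated.

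Per kilobase of counted exons, the order of E2F1 and E2F3 differed between the variants. This length takes in all counted exons of a gene, whichever transcripts were present. Before division by length, E2F3 was above E2F1 in every library, with 23.9 and 24.5 CPM against 19.2 and 17.3 in HSF1 libraries. The lengths were 2503 bases for E2F1 and 5164 for E2F3, and the change of order depends on them. The level of E2F1 was 0.414 and 0.262 times that of E2F3 in the WT libraries and 1.65 and 1.46 times in the HSF1 libraries. On this scale E2F3 was the higher activator in both WT libraries and E2F1 in both HSF1 libraries. The summed level of E2F1 and E2F3 was 8.94 and 7.56 CPM per kilobase in WT and 12.3 and 11.7 in HSF1 libraries.

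E2F2, the remaining activator (ENSG00000007968.6, chromosome 1, 23506430 to 23531220, minus strand), had 0 counts in every library, and no level is given for it. It lies in a run of 15 genes, from 23244765 to 23680259, with at most 6 counts each in any library. The run holds HNRNPR, an RNA-binding protein gene used by most cells, with 1, 0, 0 and 6 counts in the order WT 1, WT 2, HSF1 1 and HSF1 2, and ID3, an inhibitor of basic helix-loop-helix factors, with 1, 0, 0 and 0. These 2 neighbours and the 2 that follow are named after their values were seen. The genes on either side were measured, with RPL11, a ribosomal protein gene, at 9959, 9050, 24650 and 23860 counts and HTR1D, a serotonin receptor gene, at 85, 130, 13 and 9. In the annotation 13 genes of the run have a copy with the same exon model on the contig KQ458383.1, and E2F2 is the only 1 of the 180 listed genes with such a copy. The copy of E2F2 had 0, 0, 0 and 1 counts. The way reads with more than one best position were counted is not given in the sources used here, and its part in these zeros was not tested.

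**Figure D2:**
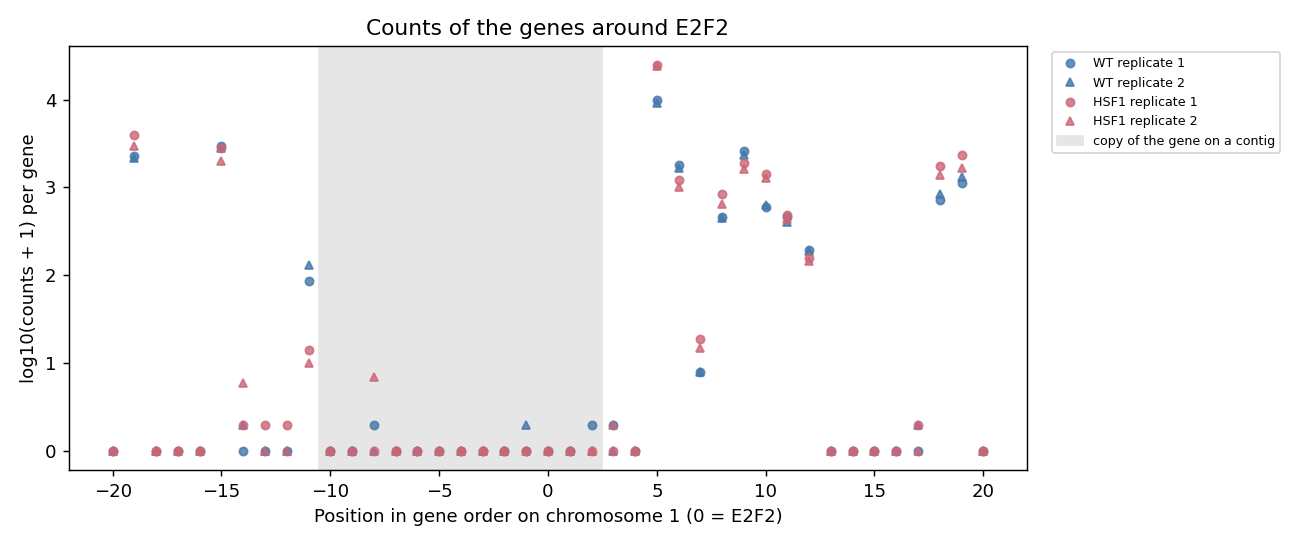
Counts of the genes around E2F2 in each library, as log10(counts + 1), by their order along chromosome 1 with E2F2 at 0. The grey band marks the genes with a copy of the same exon model on a contig, where no gene has more than 6 counts in any library, while genes on either side, such as RPL11, reach 24650.

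E2F4 (ENSG00000205250.8, chromosome 16, 67192169 to 67198918, plus strand), the main partner of p107 and p130 in resting cells, was the most abundant E2F per kilobase in all 4 libraries. It had 726 and 743 counts in WT libraries (38.7 and 39.99 CPM) and 1860 and 1538 in HSF1 libraries (74.1 and 77.4 CPM). The groups stood far apart, with replicates that differed little. E2F4 rose 1.93-fold (log2 fold change 0.95 ± 0.084), with an adjusted p of 2.05e-07.

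E2F5 (ENSG00000133740.10, chromosome 8, 85177225 to 85217158, plus strand), the other repressor of this class, did not show a difference. It had 81 and 95 counts in WT libraries (4.32 and 5.11 CPM) and 125 and 85 in HSF1 libraries (4.98 and 4.28 CPM). The variants overlapped. Its log2 fold change was -0.021 with an adjusted p of 0.932. Changes within its 95% interval of -0.44 to 0.40 remain compatible with the data. Of its exon bases 969 are shared with RBIS on the opposite strand, a gene with a log2 fold change of 0.42. Whether the counting used the strand is not given in the sources used here, so reads of the shared bases cannot be assigned with certainty.

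The atypical repressors both rose. E2F7 (ENSG00000165891.15, chromosome 12, 77021247 to 77065580, minus strand), which represses E2F1 and other E2F targets late in S phase, had 217 and 242 counts in WT libraries (11.6 and 13.0 CPM) and 634 and 434 in HSF1 libraries (25.3 and 21.8 CPM). Its log2 fold change was 0.94 ± 0.12, with an adjusted p of 7.85e-06. E2F8 (ENSG00000129173.12, chromosome 11, 19224063 to 19241620, minus strand), which acts together with E2F7, was the E2F gene with the fewest counts among those tested, with 39 and 36 in WT libraries (2.08 and 1.94 CPM) and 124 and 85 in HSF1 libraries (4.94 and 4.28 CPM). Its log2 fold change was 1.20 ± 0.23, with an adjusted p of 0.000315. For both genes every HSF1 library was above every WT library, and the few counts of E2F8 leave it the widest standard error of the family.

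Among the pocket proteins, RB1 (ENSG00000139687.13, chromosome 13, 48303751 to 48481986, plus strand), the retinoblastoma tumour suppressor, did not pass the threshold. It had 885 and 860 counts in WT libraries (47.1 and 46.3 CPM) and 1198 and 771 in HSF1 libraries (47.7 and 38.8 CPM). The HSF1 libraries lay on both sides of the WT libraries. RB1 had a log2 fold change of -0.11 (95% interval -0.32 to 0.11) with an adjusted p of 0.367, an interval that lies within a change of 0.32 on the log2 scale.

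RBL1 (ENSG00000080839.11, chromosome 20, 36996349 to 37095995, minus strand), which encodes p107, the pocket protein of dividing cells, rose most of the 3. It had 124 and 120 counts in WT libraries (6.61 and 6.46 CPM) and 453 and 408 in HSF1 libraries (18.04 and 20.5 CPM). The WT libraries were almost equal, and both HSF1 libraries were well above them. RBL1 rose 2.95-fold (log2 fold change 1.56 ± 0.13), with an adjusted p of 1.12e-07.

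RBL2 (ENSG00000103479.15, chromosome 16, 53433977 to 53491649, plus strand) encodes p130, the pocket protein typical of resting cells and a part of the DREAM complex that silences cell cycle genes in them. It had 908 and 861 counts in WT libraries (48.4 and 46.3 CPM) and 1961 and 1497 in HSF1 libraries (78.1 and 75.4 CPM). The variants did not overlap. RBL2 rose by 0.70 ± 0.083 on the log2 scale, with an adjusted p of 4.13e-06. RBL2 shares 610 exon bases with AKTIP and 721 with ENSG00000279344.1, both on the opposite strand. AKTIP fell by 1.48 on the log2 scale, opposite to RBL2, and ENSG00000279344.1 had at most 7 counts in a library.

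**Figure D3:**
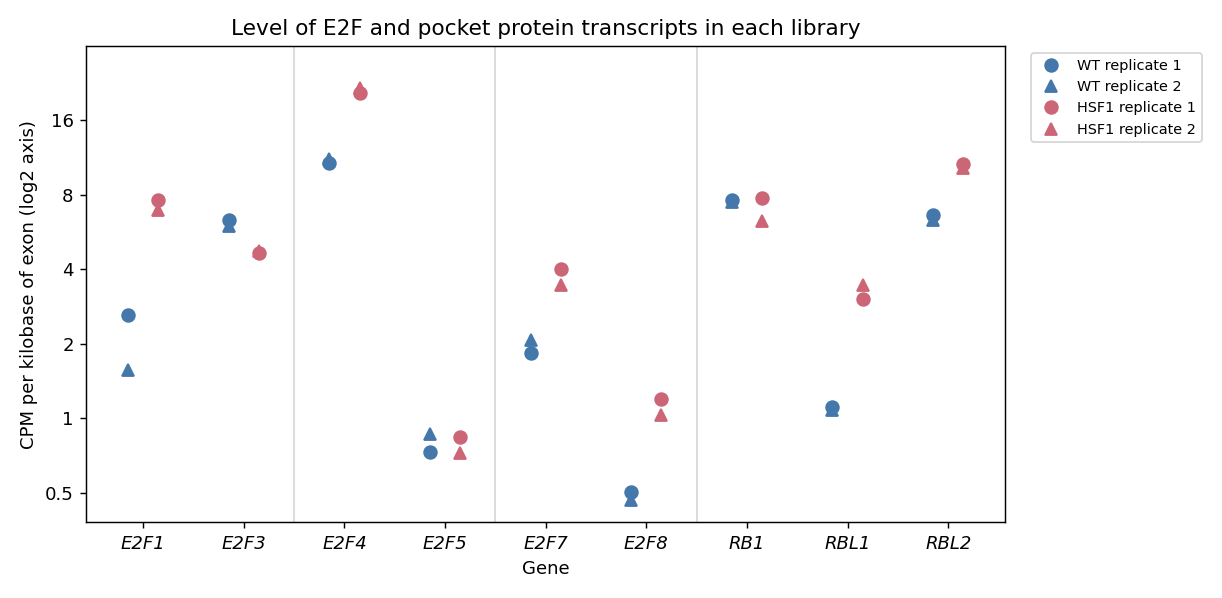
Level of each gene of the family with counts, in CPM per kilobase of counted exons on a log2 axis, in each of the 4 libraries (WT in blue, HSF1 in red, replicate 1 as circles and replicate 2 as triangles). E2F4 is the highest in every library, E2F1 lies below E2F3 in WT libraries and above it in HSF1 libraries, and RB1 lies above RBL2 only in WT libraries.

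The order of the E2F genes by level per kilobase was read in each variant. In WT cells the means ran from E2F4 at 10.98 CPM per kilobase through E2F3 at 6.16, E2F1 at 2.09, E2F7 at 1.95 and E2F5 at 0.795 to E2F8 at 0.485. E2F1 and E2F7 overlapped between the WT libraries and were not told apart, while the other neighbours did not overlap. In HSF1 cells the means ran from E2F4 at 21.1 through E2F1 at 7.29, E2F3 at 4.69, E2F7 at 3.74 and E2F8 at 1.11 to E2F5 at 0.781, with no overlap between neighbours. The summed level of the 6 genes was 22.8 and 22.1 CPM per kilobase in WT and 39.0 and 38.5 in HSF1 libraries.

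The share that each gene took of this sum shifted as well. E2F3 made up 27.4% ± 0.456 of the E2F sum in WT and 12.1% ± 0.301 in HSF1 cells (SD, n = 2 each). E2F1 went from 9.29% ± 3.10 to 18.8% ± 1.16. E2F4 made up 48.9% ± 2.20 and 54.6% ± 2.22, the largest share in every library. With 2 libraries against 2 an exact permutation test cannot give a p below 0.33, so no test is given for the shares. The E2F3 and E2F1 shares were separated by more than their spread between replicates.

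The shares of the 3 pocket protein genes shifted too, and RB1 and RBL2 changed places per kilobase. RB1 made up 50.02% ± 0.381 of their summed level per kilobase in WT cells and 33.7% ± 3.31 in HSF1 cells, RBL2 42.7% ± 0.415 and 50.6% ± 1.134, and RBL1 7.25% ± 0.0340 and 15.7% ± 2.18. RB1 itself did not pass the threshold while RBL1 and RBL2 rose, so its smaller share does not show a fall of RB1. Per kilobase, RB1 was above RBL2 in both WT libraries and below it in both HSF1 libraries. Before division by length, RBL2 was not below RB1 in the WT libraries, at 48.4 and 46.3 CPM against 47.1 and 46.3. The change of places thus depends on the counted lengths, 6169 bases for RB1 and 7320 for RBL2. The ratio of RBL1 to RB1 was 0.145 in both WT libraries and 0.392 and 0.548 in HSF1 libraries. The summed pocket protein level was 15.4 and 14.9 CPM per kilobase in WT and 21.4 and 20.0 in HSF1 libraries.

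**Figure D4:**
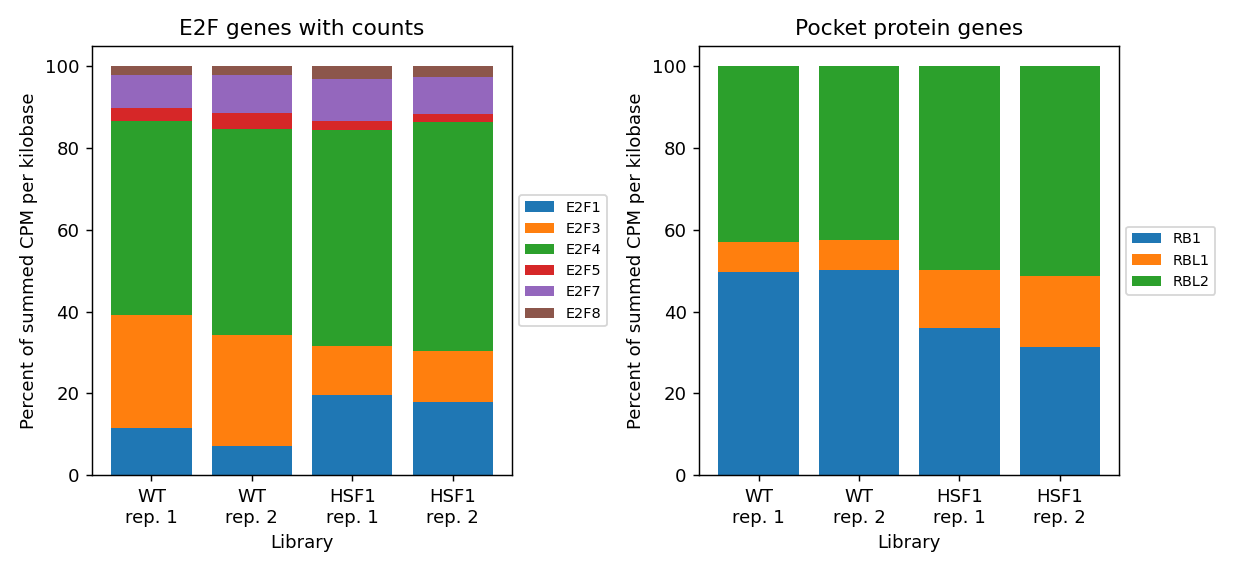
Share of each gene in the summed level per kilobase of the 6 E2F genes with counts (left) and of the 3 pocket protein genes (right), in percent, in each library. The share of E2F3 is smaller and that of E2F1 larger in the HSF1 libraries, and the share of RB1 is smaller while those of RBL1 and RBL2 are larger. A share also falls when the other genes of the sum rise, and RB1 itself did not pass the threshold.

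The study's methods ask that a gene's normalized value differ by a ratio over 2, or under 0.5, in each replicate. Applied to the deposited table, E2F1 (ratios 2.63 and 3.80) and RBL1 (2.47 and 2.91) passed upwards and no member passed downwards. This limit was passed upwards by 5.00% and downwards by 6.42% of the 22321 rows of that table. E2F7 had ratios of 2.04 and 1.63, E2F8 of 1.96 and 1.86, and E2F4 of 1.84 and 1.90, just short of it. These normalized values shrink the differences of genes with few counts. On counts divided by DESeq2 size factors plus 1, the ratios of E2F8 were 2.27 and 2.16, and 3 members passed upwards, as did 10.9% of the 15830 tested genes on that scale.

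The partners of the E2F factors were read from the same fit. TFDP1, which encodes the main dimer partner DP1, was at 92.9 and 81.4 CPM in WT and 141.4 and 147.0 CPM in HSF1 libraries, a log2 fold change of 0.73 ± 0.091 with an adjusted p of 7.04e-06. TFDP2, the gene of the second partner, had a log2 fold change of -0.12 (95% interval -0.31 to 0.071) and did not pass the threshold, and TFDP3 had no counts. E2F6, which represses without pocket proteins, had a log2 fold change of 0.29 (95% interval -0.051 to 0.64) and did not pass either. Of the 4 genes of this group 3 were tested and 1 rose, beside 32.7% of all tested genes.

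The MuvB complex joins the pocket proteins p107 and p130 and E2F4 to form DREAM in resting cells, and joins B-MYB and FOXM1 to activate mitotic genes in dividing cells. Of its 8 listed genes 5 rose, 1 fell and 2 did not pass the threshold, with a median log2 fold change of 0.47. The shares over all tested genes were 32.7% higher and 33.2% lower. The activating partners rose most: FOXM1 by 1.96 ± 0.12 (adjusted p 4.41e-09) and MYBL2, the gene of B-MYB and itself an E2F target, by 1.92 ± 0.17 (adjusted p 1.80e-07). Of the core, LIN9 rose by 0.77 ± 0.18 and RBBP4, a histone-binding protein shared with other complexes, by 0.61 ± 0.085. LIN54, the DNA-binding subunit, rose by 0.33 ± 0.13 and LIN37, needed for repression by DREAM, had a log2 fold change of -0.54 ± 0.22, with adjusted p of 0.0405 and 0.0446, and both lost the call under several alternatives (adjusted p up to 0.292 and 0.237). LIN52 (-0.10) and MYBL1 (-0.083) did not pass.

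Upstream of the pocket proteins, the cyclins, kinases and inhibitors did not move one way. Of 15 listed genes 12 were tested, 3 rose, 3 fell and 6 did not pass, with a median of 0.088. Over all tested genes 32.7% rose and 33.2% fell. CCND1, which encodes the cyclin D1 that directs CDK4 and CDK6 to RB1, showed the largest fall: 1900 and 1925 CPM in WT libraries against 245.8 and 199.3 in HSF1 libraries, 8.59-fold lower (log2 fold change -3.10 ± 0.12, adjusted p 6.56e-11). CDKN1A, which encodes the kinase inhibitor p21, was 2.58-fold lower (1182 and 1160 CPM against 473.0 and 434.3, adjusted p 2.78e-08). CDK4, a kinase of RB1, rose 2.88-fold (21.4 and 16.7 CPM against 52.1 and 57.8, adjusted p 3.31e-08). CCND1 and CDK4 therefore went in opposite directions. The other cyclin D genes, CCND2 (log2 fold change 0.12) and CCND3 (-0.18), which lie outside the rule for naming genes, did not pass the threshold.

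Of the other genes of this group, CCNE2, a cyclin E gene and an E2F target, rose by 1.01 ± 0.24 (adjusted p 0.00222), whereas CCNE1, the other cyclin E gene, had a log2 fold change of 0.20 (95% interval -0.12 to 0.51) and did not pass. CDK6 (0.079) and CDKN1B, the p27 gene (0.097), did not pass. The remaining calls were CDKN2C, which encodes the CDK4 and CDK6 inhibitor p18, with 19 and 15 counts against 78 and 49 (log2 fold change 1.62), and CDKN2D, the p19 gene, at -0.95. Both lie outside the rule for naming genes and were named after their values were seen. CDKN2A, the gene of the CDK4 and CDK6 inhibitor p16, had 0 counts in all 4 libraries, which allows up to 3 counts or 0.161 CPM in a library, and so did CDKN2B. CDKN1C was the other gene of the group that was not tested.

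Genes that control the turnover of E2F and pocket proteins were mixed. Of 10 tested 6 rose, 3 fell and 1 did not pass, with a median of 0.53. Among all tested genes 32.7% rose and 33.2% fell. UBE2C, the ubiquitin-conjugating enzyme of the anaphase-promoting complex, rose by 2.02 ± 0.11 (adjusted p 1.42e-09) and CDC20, an activator of that complex, by 1.64 ± 0.14 (adjusted p 1.17e-07). Both also stand in the list of mitotic genes below. FZR1, the activator of the complex in G1, had a log2 fold change of -0.74 ± 0.082 (adjusted p 1.92e-06) and SKP1, a subunit of SCF ubiquitin ligases, of -0.66 ± 0.090 (adjusted p 1.59e-05).

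Of 13 corepressor genes tested, 6 rose, 2 fell and 5 did not pass, and the median of 0.060 was close to that of all tested genes. Of the latter 32.7% rose and 33.2% fell. EZH2, the histone methyltransferase of Polycomb complex PRC2, rose by 1.41 ± 0.11 (adjusted p 7.35e-08) and DNMT1, the maintenance DNA methyltransferase, by 1.24 ± 0.091 (adjusted p 2.60e-08). Both are also E2F targets and stand in the G1/S list. ARID4B (-0.34 ± 0.084, adjusted p 0.00270) and HDAC2 (-0.26 ± 0.085, adjusted p 0.0144), members of histone deacetylase complexes, fell slightly, and both calls were lost without HSF1 replicate 2.

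The target genes downstream of the family moved together. Of 54 listed G1/S genes, those for DNA replication and S phase entry, 53 rose, none fell and CCNE1 did not pass. At least 2-fold rises were seen in 46 of them, and the median log2 fold change was 1.67. Among all tested genes 32.7% rose, and 14.9% rose at least 2-fold. CDT1, which licenses replication origins, went from 10.1 and 7.59 CPM to 80.4 and 98.3 CPM, 10.1-fold (log2 fold change 3.34 ± 0.14, adjusted p 7.65e-11). PRIM1, a subunit of the primase, went from 3.04 and 2.37 CPM to 19.5 and 16.3 CPM (2.73 ± 0.17, adjusted p 4.76e-09). The genes of the list summed to 1033 and 909 CPM in WT and to 2776 and 2718 CPM in HSF1 libraries.

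All 30 listed G2/M genes, targets of the MuvB complexes, rose, and all of them at least 2-fold, with a median of 2.01. Over all tested genes these shares were 32.7% and 14.9%. PTTG1, the securin gene, rose by 2.65 ± 0.13 (adjusted p 3.45e-10) and TOP2A, a topoisomerase of dividing cells, by 2.60 ± 0.12 (adjusted p 2.55e-10). MKI67, the gene of the Ki-67 proliferation marker, was at 61.3 and 40.3 CPM in WT and 218.2 and 167.6 CPM in HSF1 libraries (1.93 ± 0.16, adjusted p 1.06e-07). The list summed to 449.6 and 361.3 CPM in WT and to 1729 and 1422 CPM in HSF1 libraries. WT replicate 1 was thus above WT replicate 2 for E2F1, for 42 of the 54 G1/S genes and for 27 of the 30 G2/M genes, beside 7724 of 15830 tested genes. HSF1 replicate 1 was above HSF1 replicate 2 for E2F1, for 35 of the 54 G1/S genes and for all 30 G2/M genes. That was so for 8169 of the tested genes. By crystal violet staining, the study saw no effect of extra HSF1 on the proliferation of MCF10A cells. From the RNA-seq of the same variants, it listed DNA replication among the pathways enriched in its up-regulated genes. How far the level of E2F1 followed the share of dividing cells was not tested.

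**Figure D5:**
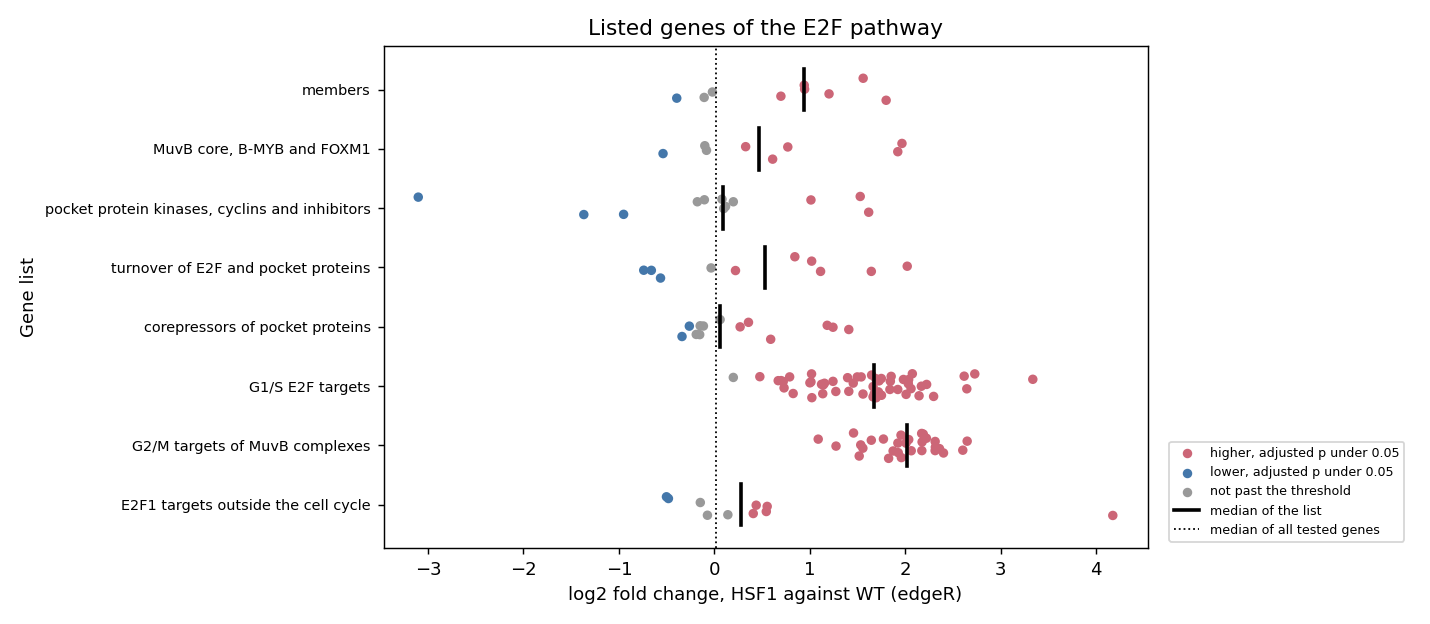
Log2 fold change between HSF1 and WT cells (x axis) of every tested gene in the family and in 7 lists of its pathway (y axis), where points are genes, black bars the medians of the lists and the dotted line the median of all tested genes. The G1/S and G2/M genes all lie above 0, with medians of 1.67 and 2.01, while the kinases, cyclins and inhibitors and the corepressors lie on both sides.

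The same promoter search was made in the target lists. Of the 46 G1/S genes with a known promoter, 25 held an E2F site (54.3%), beside 3.30% of all 27305 genes with one, and 3 of 25 G2/M genes did (12.0%). The CHR element was found in 17 of the 25 G2/M genes (68.0%) and in 3 of the 46 G1/S genes (6.52%), beside 18.2% of all genes. The lists were written as targets of E2F and of MuvB, so these shares describe the lists and not the changes in these data. Of the members, E2F1, E2F2, E2F3 and RBL1 held the E2F site and E2F4, E2F7 and RBL2 did not. E2F2 has no direction of change. E2F3 has another RefSeq start, at 20403614, whose promoter held no site, and its transcripts were not separated. Whether the site had a part in the changes of the family was not tested.

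E2F1 also has targets outside the cell cycle, among them genes of apoptosis, and these did not move one way. Of 10 tested 5 rose, 2 fell and 3 did not pass, with a median of 0.27. The shares of all tested genes were 32.7% higher and 33.2% lower. TP73, which encodes the p53 relative p73, had 23 and 26 counts in WT and 564 and 500 in HSF1 libraries, 18.05-fold higher (log2 fold change 4.17 ± 0.17, adjusted p 7.75e-11). BCL2L11, the gene of the BH3-only protein BIM, rose by 0.55 ± 0.11 (adjusted p 0.000470). TP53INP1, a stress-induced p53 cofactor gene, had a log2 fold change of -0.48 ± 0.12 (adjusted p 0.00242), a call that was lost without HSF1 replicate 2. TP73 was thus the only gene of this list that rose at least 2-fold.

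The genes whose pattern over the 4 libraries was nearest to a member were found by the distance between centred log2 CPM values, among genes with a mean CPM within 2-fold of it. Nearest to E2F1 were HJURP (distance 0.121), a centromere protein gene, GINS2 (0.194), a replicative helicase gene, and CEP55 (0.212), a cytokinesis gene, where the median over 3602 candidates was 1.86. HJURP was at 6.87, 4.14, 21.7 and 17.5 CPM in the order WT 1, WT 2, HSF1 1 and HSF1 2, close to the 6.55, 3.93, 19.2 and 17.3 CPM of E2F1. Nearest to RB1 were RALGPS2 (0.0369), RBBP9 (0.0486) and ATF7IP (0.0661), beside a median of 0.510 over 4555 candidates. With 4 libraries these distances describe the libraries and carry no test.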

How the data were processed

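RNA-seq of total RNA depleted of ribosomal RNA was analysed for 4 MCF10A libraries, 2 WT and 2 HSF1, assigned to variants and replicates by their titles. The authors aligned paired-end reads to hg38 with HISAT2 2.0.5, processed them with SAMtools 1.13 and deposited raw counts per gene made with featureCounts 1.6.5. A second deposited table holds normalized log2-like values made by the authors with DESeq2 1.32.0, used here for the ratios within replicate number alone. For the members they matched a blind variance-stabilizing transformation of the counts with DESeq2, apart from the second of 2 rows with the symbol E2F2, which differed from the recomputed value of E2F2 by up to 0.49 and was not used. Tool names and versions are those of the submitters' processing notes. All per-sample columns were used, and symbols were matched to the Ensembl identifiers of the count table.

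Counts were tested across the whole table with edgeR 4.0.16 in R 4.3.3 (TMM factors between 0.9635 and 1.04, filterByExpr with its defaults, quasi-likelihood test, no replicate block), with Benjamini-Hochberg adjustment over 15830 genes. Genes with an adjusted p under 0.05 were called. The test draws the spread of each gene towards that of the other genes (median prior degrees of freedom 11.9), so a p-value does not rest on the gene's own libraries alone. Errors of log2 fold changes are standard errors, and intervals are 95%. Where a fold change is given on the log2 scale it is HSF1 minus WT. CPM per kilobase divides CPM by the length of the counted exons. Depth was between 18688109 and 24184285 counts per library, and the limit for 0 counts is 3 counts, which covers counting error only. A chi-square test of the replicate pairs gave 6.62 (WT) and 8.04 (HSF1) per degree of freedom, so the libraries of a pair differed by more than sampling noise.

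The replicate numbers are not said to mark a shared culture, so they were not used as pairs. The correlation of same-numbered deviations was 0.000143 (every tested gene) and -0.113 (the 9672 genes at 8 CPM or more). With 2 libraries per variant it cannot decide whether a number marks shared handling. The members, lists and tests were chosen with earlier results of these data known. All genes of lists of 8 or fewer were named, and of longer lists the 2 called genes that rose most and the 2 that fell most, with at least 50 counts in each library of the higher variant, together with CCND1, CDK4, CDK6, CCNE1, CCNE2, CDKN1A, CDKN1B, CDKN2A and MKI67. Some items that the lists or this rule hold are not reported here. The alternatives were other normalizations, no filter, DESeq2 1.42.0, the replicate block, each library left out in turn and a 2-fold limit. The crossed pairing and centring on the median of all genes were added after seeing the data. The fit was tested on simulated data. Promoters are RefSeq sequences of GRCh38.p14, found for 8 members and used for the 7 whose start lies within 600 bases of the first counted base.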

Additional observations from a re-analysis of the deposited data

How the results depend on the processing

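No member lost or gained its call under any alternative tried, other than the limit of 2-fold, which left 3 members higher and 0 lower and 2358 genes higher and 2218 lower over the whole table. The log2 fold change of E2F5, not called, turned to 0.040 with library size as the only normalization and lay between -0.13 and 0.090 with each library left out. That of RB1, not called, lay between -0.26 and 0.041. Of other genes not called, the sign turned for MYBL1 (-0.22 to 0.043), CDK6 (-0.036 to 0.20), PSMD10 (-0.19 to 0.11) and SMARCA2 (-0.043 to 0.16) over the fits that leave out a library, and for PSMD10 (0.027) with library size only. With each library left out, between 7 and 13 listed pathway genes were called lower, where all libraries gave 11. The 7 came without HSF1 replicate 2, when 7629 genes were called in place of 10428. In such fits the lone library of a variant is assumed to vary like the others. The largest adjusted p of every called member came from the fit without HSF1 replicate 2: 0.0134 for E2F1, 0.0441 for E2F3, 0.00499 for E2F4, 0.00727 for E2F7, 0.0147 for E2F8, 0.00423 for RBL1 and 0.00844 for RBL2. The other listed genes were read under each alternative. Of these values, counted per gene and alternative, 33 lost the call, 4 gained it and 5 changed sign, against 1421 that did none of these. The cause was not tested.

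With the replicate number as a block 10309 genes were called, and with the crossed pairing, chosen after seeing the data, 10916. The replicate block left 6 members higher and 1 lower, and it ended the call of LIN54. The labels of same-numbered samples share only the number. With library size only, 53.5% of calls were higher, against 49.6% with TMM factors. DESeq2's Wald test called 8214 genes. Depth limits E2F5 and E2F8 most, with at most 125 counts in a library.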

Other observations

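Beside the E2F family, the epithelial markers used to check the cell type changed on both sides: of 12 genes 8 were lower and 3 higher in HSF1 cells, with log2 fold changes between -3.55 and 3.48 and a median of -1.27. In WT cells KRT17 was the highest of them, at 7194 CPM against 1220 in HSF1 cells, and KRT8 went from 3165 to 335. KRT5 rose from 2113 to 4592 CPM. The summed level of the markers, lower in the HSF1 libraries, follows such abundant keratins. Any link between these markers and the rise of the E2F target genes was not tested.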
